A study of Mus musculus with 53 samples.

Results

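NUP98-HOXD13 tumours are T-cell lymphomas of mice that carry a transgene for the fusion of NUP98 with HOXD13, and they are set here against T-cell lymphomas of other lymphoma-prone mice. The members are the 3 arrays whose genotype label is Nup98HoxD13 transgenic, of 53 arrays in all. The comparison group holds 35 arrays of 11 backgrounds, which are all those whose genotype names neither TLX1 nor p53. They are Cdkn2a knock out with retroviral insertional mutagenesis (9 arrays), beta-catenin, LMO1, olig1-LMO1 (olig2 in the titles), Tal1-LMO2 and ThPOK transgenic and Ikaros Plastic (3 arrays each), and Tal1 and Pokemon transgenic, E2A knock out and rag E2A knock out (2 arrays each). All 38 arrays share the C57BL/6 strain, the T-cell lymphoblast label, a TLX1 negative status and no treatment, and ages are not labelled. Each array measured the total RNA of 1 sample. The labels name neither the promoter that drives the NUP98-HOXD13 transgene nor the cells it is active in. They also do not say that the 3 samples come from separate mice, so a p-value here speaks of the scatter among these arrays, part of which may be technical. Unless a different model is named, a limma p-value uses the scatter within backgrounds only. The spread between the 11 backgrounds does not enter it.

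NUP98 is a nucleoporin, a protein of the nuclear pore that also binds chromatin. In leukaemia its gene is fused to many partners, and HOXD13, a homeodomain transcription factor of the posterior HOX class, is one of them. The fusion joins the repeat-rich start of NUP98 to the DNA-binding homeodomain. Such fusions are known from blood progenitors of mouse and human to keep HOX cluster genes active, above all the genes of the HoxA cluster. HOX proteins bind DNA together with TALE homeodomain proteins, the PBX, MEIS and PKNOX families. In normal thymus, HOX genes of the A cluster are active in the earliest progenitors and are shut down as thymocytes mature.

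Values are log2 of the deposited signal intensity, and a difference of 1 is a 2-fold change. Differences are NUP98-HOXD13 mean minus the mean of the 11 other background means, so that the 9 Cdkn2a arrays count as 1 background. A gene is called where limma's adjusted p over all 12393 genes was under 0.05. The SE and p of a gene rest on 1 spread pooled within all 12 backgrounds. They understate the scatter where the 3 tumours differ more among themselves than other arrays do. The median log2 level of all genes was 9.18, and levels of different genes are not compared, since each has its own probe set. Cd3e and Thy1, of the listed T-cell markers, lay within the comparison range in all 3 tumours. Ptcra, listed with them, was lower in tumour 3 than in tumours 1 and 2, as given below. Cd3e, a chain of the CD3 complex, read 12.32, 12.27 and 12.57 in NUP98-HOXD13 tumours 1, 2 and 3, against a range of 11.53 to 13.25 in the comparison tumours, and the T-cell surface gene Thy1 read 12.99, 12.70 and 13.17, against 12.21 to 13.59. The 2 genes taken as marks of NUP98-HOXD13 tumours, Pbx3 and Hoxa7, lay above all 35 comparison tumours in tumours 2 and 3, while the library labelled tumour 1 lay within them for both. Array quality differed in 1 of 4 measures tested. An 18S ribosomal RNA control read 9.36, 9.77 and 9.46 in the NUP98-HOXD13 tumours, against a lowest of 7.96, a median of 8.74 and a highest of 9.75 (exact permutation test, two-sided, p = 0.0109, adjusted p = 0.0436 over 4 measures), and the array median and the 3' to 5' ratios of actin and Gapdh had adjusted p of 0.491, 0.808 and 0.882. The permutation test shuffled all arrays alike and took no account of likeness between arrays of 1 background, so its p can be too small. The call on the 18S control was lost without any 1 of the 3 tumours, and its part in the results below was not tested.

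Across all genes, 226 were higher in NUP98-HOXD13 tumours (1.82% of those tested) and 751 were lower (6.06%). Differences were small for most of them, with a median size of 0.42 among the higher genes and 0.35 among the lower. Those of at least 2-fold numbered 19 higher (0.153%) and 19 lower (0.153%). These counts moved with the tumours used. Without tumour 2, 49 genes were higher and 114 lower, without tumour 1, 110 and 208, and without tumour 3, 172 and 876. They moved with the comparison group too. Without beta-catenin tumours 130 were higher and 384 lower, and without olig1-LMO1 tumours 327 and 1104. The split between directions moved with the scaling, and after centring of every array on its own median 473 genes were higher and 395 lower. The counts also moved with the weights and the error model. With the 35 arrays weighted equally, 5 genes were higher (Hoxa5, Hoxc4, Pbx3, Gpx7 and Zfp64) and 0 lower in limma's test, with 643 lower at an unadjusted p under 0.05. With the background as a random block, 0 genes passed in either direction in limma's test, and 29 were higher and 75 lower at an unadjusted p under 0.05. Both of these models count the spread between backgrounds in the error, which the main fit does not.

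The genes of the fusion itself were examined first. Nup98 read 9.33, 9.31 and 9.50 in NUP98-HOXD13 tumours, against a lowest of 8.83, a median of 9.17 and a highest of 9.57 in the comparison tumours. All 3 tumours were in the upper part of that range, and the difference of 0.26 ± 0.09 (SE) did not pass (limma adjusted p = 0.057). Hoxd13 read 7.88, 7.83 and 7.88, against a lowest of 7.52, a median of 7.87 and a highest of 8.63, a difference of -0.02 (limma adjusted p = 0.913). The tumours lay in the middle of the comparison range. The labels do not give the species of the fusion gene, and no source used here places either probe set relative to the breakpoint, so these levels do not check for the transgene.

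HOX cluster genes of the A and C clusters, and the HOX cofactor gene Pbx3, were higher in NUP98-HOXD13 tumours, and this came from tumours 2 and 3. Of 39 HOX genes listed, 31 were measured, and 5 of these rose (Hoxa5, Hoxa7, Hoxc4, Hoxc6 and Hoxc8), against 1.82% of all genes, while 2 fell (Hoxc9 and Hoxb7), against 6.06% of all genes. The median difference over the 31 genes was 0.01, against -0.05 over all genes, so most of the family stayed near the comparison level, and 5 of the 31 had a NUP98-HOXD13 mean above the median level of all genes. After quantile normalization or centring, 6 were higher and 1 lower, beside 355 and 456 or 473 and 395 of all 12393 genes. Without tumour 1 the count was 9 higher and 0 lower of 31, beside 110 and 208 of all genes. Without tumour 2 it was 3 higher and 0 lower, beside 49 and 114 of all genes. Without tumour 3 it was 3 of each, beside 172 and 876 of all genes.

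The bases before the transcription start are shown for the HOX and TALE genes called higher that the RefSeq promoter table holds, as the genes the HOX result rests on. This was 3 of 6 genes, and Hoxc6, Hoxc8 and Pbx3 are not among them. Each sequence is the 250 bases before the annotated start, on the strand of the gene, 5' to 3', in build GRCm38.p6. Hoxa5 lies at chr6:52204588-52204837 on the minus strand, Hoxa7 at chr6:52218574-52218823 on the minus strand and Hoxc4 at chr15:103034145-103034394 on the plus strand. Capitals mark TAAT, the general core bound by homeodomain proteins, and TTTAT, a core preferred by posterior HOX proteins, each searched on both strands.
Hoxa5: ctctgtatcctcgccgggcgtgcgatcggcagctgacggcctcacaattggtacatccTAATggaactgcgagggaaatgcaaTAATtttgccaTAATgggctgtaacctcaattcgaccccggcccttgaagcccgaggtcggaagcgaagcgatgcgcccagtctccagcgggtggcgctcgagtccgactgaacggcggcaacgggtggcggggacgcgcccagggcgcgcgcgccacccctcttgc
Hoxa7: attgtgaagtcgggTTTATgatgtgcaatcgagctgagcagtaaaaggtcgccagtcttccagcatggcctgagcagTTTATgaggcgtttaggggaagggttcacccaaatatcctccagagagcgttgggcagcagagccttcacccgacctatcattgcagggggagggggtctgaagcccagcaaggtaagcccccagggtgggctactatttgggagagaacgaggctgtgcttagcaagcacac
Hoxc4: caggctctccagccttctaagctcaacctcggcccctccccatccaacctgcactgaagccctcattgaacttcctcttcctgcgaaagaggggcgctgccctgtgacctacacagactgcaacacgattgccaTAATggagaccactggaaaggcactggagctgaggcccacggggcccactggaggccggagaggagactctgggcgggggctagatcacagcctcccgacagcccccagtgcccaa
The Hoxa5 window held 3 TAAT cores, the Hoxc4 window held 1, and the Hoxa7 window held 2 TTTAT cores. These letters are common, and TAAT stood in 54.9% and TTTAT in 37.3% of all 32851 windows of this length. TTTAT and the reverse complement of TAAT can share letters, and no window shown here held both. TGATNNAT, bound by HOX with PBX, and TGACAG, bound by MEIS and PKNOX, stood in 7.68% and 15.9% of all windows and in none of these 3, which says only that these letters are not in these windows.

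Hoxc4, the gene at the anterior end of the mouse C cluster, read 7.80, 9.79 and 10.63 in NUP98-HOXD13 tumours 1, 2 and 3, against a lowest of 7.62, a median of 8.03 and a highest of 8.59 in the comparison tumours. Tumours 2 and 3 lay above all 35 comparison tumours and tumour 1 among them. The difference of 1.44 ± 0.25 (SE) passed (limma adjusted p = 0.000567), and it passed without any 1 of the 3 tumours (0.82 to 2.24). Hoxc4 was the 1 gene of the array called higher against each of the 11 backgrounds singly (0.00807% of genes tested), and the pairwise differences ran between 1.12 against beta-catenin and 1.64 against olig1-LMO1 tumours. At an unadjusted p under 0.05 this criterion was met by 8 genes. No gene was called lower against each of the 11 in limma's test, and 1 gene was at an unadjusted p under 0.05.

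Hoxc6 stands next to Hoxc5 in the same cluster and encodes a homeodomain protein of the middle class. It read 8.87, 9.95 and 10.87, against a lowest of 8.78, a median of 9.06 and a highest of 9.72, so again tumours 2 and 3 were above all comparison tumours and tumour 1 within them. The difference was 0.81 ± 0.18 (SE, limma adjusted p = 0.00475), called against 7 of 11 backgrounds. Of the other Hoxc6 probe sets, one rose by 0.74 and another, with a low comparison level, read 6.90, 10.65 and 11.39 against 6.74 to 7.66 and rose by 2.54 (limma adjusted p over probe sets 0.00021). On the probe set used, the call was lost without tumour 2 (0.79, limma adjusted p = 0.0647) and without tumour 3 (0.33, limma adjusted p = 0.146).

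Hoxc8 differed from these in resting on tumour 3 alone. It read 7.09, 7.37 and 10.37, against a lowest of 6.79, a median of 7.21 and a highest of 7.49, and only tumour 3 left the comparison range. The difference was 1.08 ± 0.30 (SE, limma adjusted p = 0.0267), and it was 0.03 without tumour 3 (limma adjusted p = 0.887); the call was also lost without the Cdkn2a background (adjusted p = 0.0793). Hoxc5, which lies between Hoxc6 and Hoxc4, read 8.06, 8.23 and 9.56, against 7.89 to 8.72, and did not pass (0.36, limma adjusted p = 0.148). Hoxc9, on the far side of Hoxc8, read 8.78, 8.85 and 9.10, against a lowest of 8.72, a median of 9.43 and a highest of 10.28. It fell by 0.41 on the log2 scale (limma adjusted p = 0.00836), a call lost without tumour 1 (-0.35, adjusted p = 0.108) and without tumour 2 (-0.38, adjusted p = 0.0997). Singly, Hoxc9 was called only against beta-catenin, Cdkn2a, Ikaros Plastic and ThPOK tumours. It differed by 0.08, 0.03 and 0.02 from LMO1, olig1-LMO1 and Pokemon tumours. Hoxc13, at the posterior end, differed by 0.02 (limma adjusted p = 0.862).

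In the A cluster, Hoxa5, a gene of the middle class that blood progenitors express, read 7.46, 9.34 and 9.49, against a lowest of 7.23, a median of 7.49 and a highest of 8.40. Tumours 2 and 3 were at like levels above all comparison tumours, and tumour 1 was at the comparison median. The difference of 1.29 ± 0.21 (SE) passed (limma adjusted p = 0.00029) and held without any 1 tumour (0.93 to 1.94). It was called against 10 of 11 backgrounds, the exception being Pokemon (0.89, limma adjusted p = 0.262).

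Hoxa7, a marker of MLL-rearranged and other HOX-high leukaemias, read 8.62, 9.70 and 11.12, against a lowest of 8.61, a median of 9.01 and a highest of 9.59. Tumour 3 was far above the comparison tumours, tumour 2 just above their highest and tumour 1 at their lowest. The difference was 0.82 ± 0.22 (SE, limma adjusted p = 0.0201), called against 1 of 11 backgrounds singly. It was lost without tumour 2 (0.88, limma adjusted p = 0.0981), without tumour 3 (0.17, limma adjusted p = 0.539) and without the Cdkn2a background (limma adjusted p = 0.0562).

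Hoxa9 and Hoxa10, the posterior A-cluster genes best known from leukaemia, did not pass on the probe sets used, and tumour 2 alone was high. Hoxa10 read 7.23, 9.19 and 7.42, against 7.17 to 8.10 (0.41, limma adjusted p = 0.177). Hoxa9 read 8.45, 9.26 and 8.75, against 8.17 to 9.06 (0.23, limma adjusted p = 0.145), and its other probe set read 7.99, 10.89 and 7.98, against 7.49 to 8.57 (0.87, limma adjusted p over probe sets 0.0738). Tumour 2 thus exceeded all comparison tumours for Hoxa9 and Hoxa10, and tumour 3 did not. A second probe set of Hoxa3 read 7.22, 8.22 and 8.88, against 7.03 to 7.62, and rose (0.73, limma adjusted p over probe sets 0.00293), while the Hoxa3 probe set used, of higher intensity, did not (-0.16, limma adjusted p = 0.498).

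The B and D clusters held no gene that rose. The 9 measured B-cluster genes differed by -0.25 (Hoxb9) to 0.02 (Hoxb6), and Hoxb7 fell by 0.24 on the log2 scale (limma adjusted p = 0.0131), a call lost after quantile normalization and after centring each array on its median. Hoxd8 read 8.38, 8.25 and 10.60, against a lowest of 8.21, a median of 8.57 and a highest of 10.09. Tumour 3 alone exceeded the comparison tumours, and the difference of 0.46 did not pass (limma adjusted p = 0.26). The other 6 measured D-cluster genes differed by -0.10 (Hoxd12) to 0.03 (Hoxd10).

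**Figure D1:**
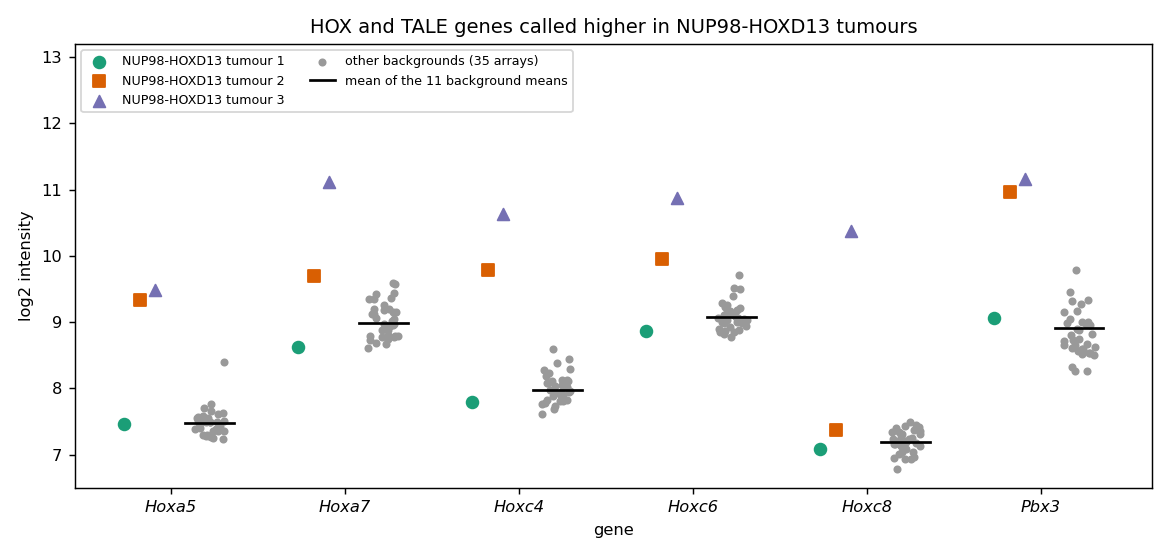
Log2 intensity (vertical axis) of the 6 HOX and TALE genes called higher, with the 3 NUP98-HOXD13 tumours as coloured symbols, the 35 arrays of other backgrounds as grey points and a bar at the mean of the 11 background means. Tumours 2 and 3 stand above the grey points for Hoxa5, Hoxa7, Hoxc4, Hoxc6 and Pbx3, tumour 3 alone does for Hoxc8, and tumour 1 stands among them.

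Counted array by array, tumour 1 had 0 of 31 HOX genes above every array of the other backgrounds, tumour 2 had 6 (Hoxa5, Hoxa7, Hoxa9, Hoxa10, Hoxc4 and Hoxc6) and tumour 3 had 8 (Hoxa4, Hoxa5, Hoxa7, Hoxc4, Hoxc5, Hoxc6, Hoxc8 and Hoxd8). Over all genes the same count took 1.23%, 1.98% and 1.41% of genes in tumours 1, 2 and 3. Among the 35 comparison arrays, each set against the arrays of all other backgrounds, 23 had 0 such HOX genes and 12 had at least 1. The highest was 7, in 1 Cdkn2a array that had 15.8% of all its genes in this position. Tumours 2 and 3 shared Hoxa5, Hoxa7, Hoxc4 and Hoxc6. In tumour 3 the genes Hoxc4, Hoxc5, Hoxc6 and Hoxc8, all the measured genes on that side of Hoxc9, were above the comparison arrays.

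**Figure D2:**
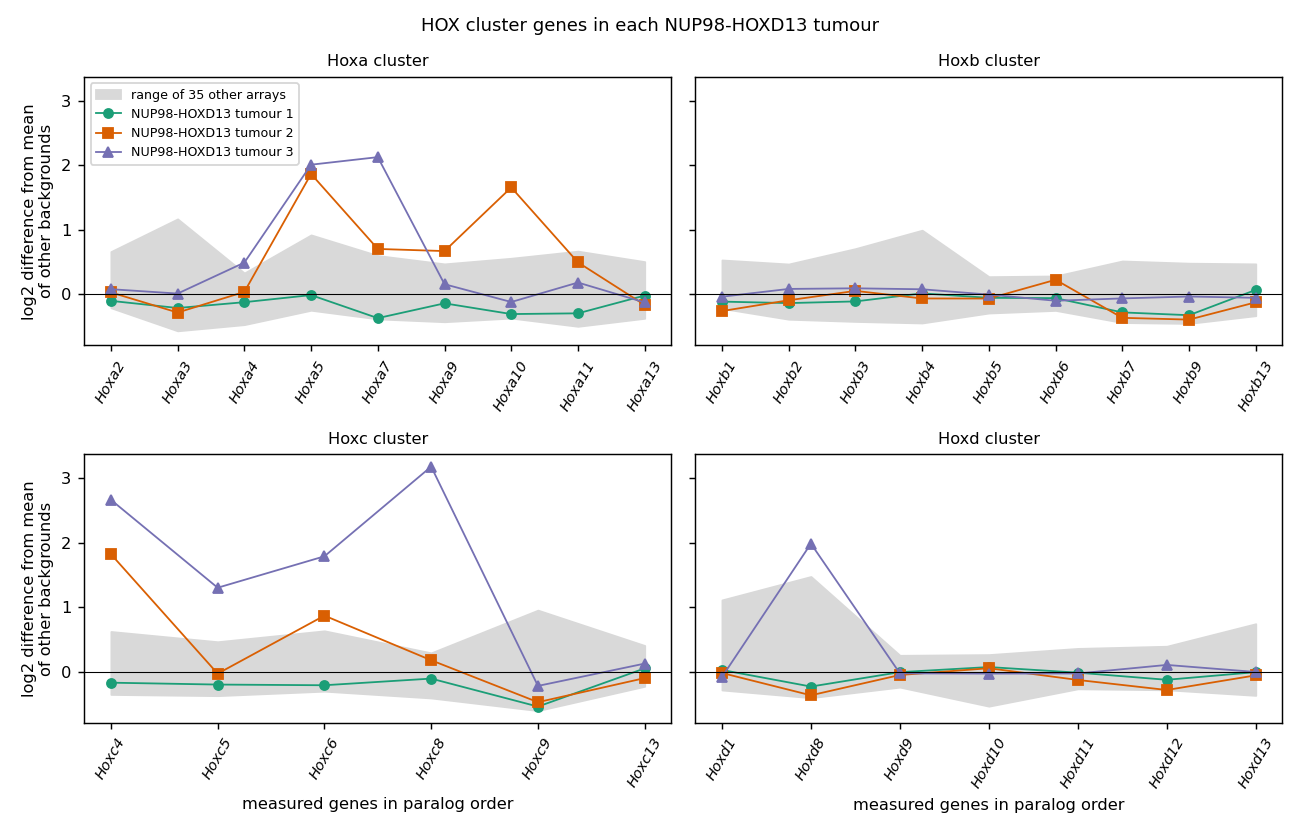
Difference of each NUP98-HOXD13 tumour from the mean of the 11 background means (vertical axis, log2) for the measured genes of the 4 HOX clusters in paralog order (horizontal axis), with the range of the 35 comparison arrays in grey. Tumour 1 stays in the grey band throughout, tumours 2 and 3 rise above it in the Hoxa and Hoxc clusters, tumour 3 does so at Hoxd8, and tumour 2 is just below it at Hoxb1 and Hoxd12.

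TALE cofactors were measured for 8 of 9 listed genes, and 1, Pbx3, rose, against 1.82% of all genes. Pbx3 encodes a PBX partner of HOX proteins and is co-expressed with HOXA genes in human leukaemia. It read 9.06, 10.96 and 11.16 in NUP98-HOXD13 tumours, against a lowest of 8.26, a median of 8.75 and a highest of 9.79 in the comparison tumours. Tumours 2 and 3 were above all 35, and tumour 1 was in the upper part of their range, with 7 comparison tumours at or above it. The difference of 1.48 ± 0.22 (SE) passed (limma adjusted p = 9.27e-05), held without any 1 tumour (1.10 to 2.14), and was called against 10 of 11 backgrounds, all but rag E2A knock out (0.85, limma adjusted p = 0.159). Meis1, a partner of HOXA9 in leukaemia, read 7.51, 7.50 and 7.45, against a median of 7.24 and a highest of 9.59, and did not pass (0.08 ± 0.24, limma adjusted p = 0.874). Pbx2 read 9.67, 9.80 and 10.34, against 8.95 to 10.11 (0.36, limma adjusted p = 0.16). The remaining 5 TALE genes differed by -0.24 (Pknox1) to 0.09 (Pknox2).

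Other cell types and cofactors of HOX loci are given beside these values. Stromal, endothelial and epithelial markers, whose cells can express HOX genes, summed to a log2 level of 14.04, 15.26 and 14.11 in tumours 1, 2 and 3, against 13.08 to 15.62 over the comparison tumours, so tumour 2 was high and tumour 3 near tumour 1. Myeloid markers summed to 14.60, 15.13 and 15.21, against 13.46 to 15.88, so tumours 2 and 3 were above tumour 1. The part of these cells in the HOX levels was not tested. In bulk tumour RNA, a higher share of cells of a type and more RNA per cell cannot be told apart. Of 19 measured chromatin partners of NUP98 fusions and HOX loci (Nup98 among them), 0 were called in limma's test, with differences between -0.21 (Kmt2a) and 0.39 (Psip1). Progenitor genes sustained in leukaemia, such as Mecom, Hmga2 and Trib1, also gave 0 calls of 15, with a median of -0.04, and early T-cell progenitor genes gave 0 of 15, with a median of -0.05. Within the latter list Cd44 read 8.14, 10.19 and 8.38, against 7.72 to 11.89, high in tumour 2 alone of the 3.

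Genes with the largest differences toward higher levels in NUP98-HOXD13 tumours included a second homeobox family. Dlx1, a distal-less homeobox gene known from the embryonic forebrain, read 8.47, 10.08 and 10.20, against a lowest of 7.09, a median of 7.26 and a highest of 10.28. As with the HOX genes, tumours 2 and 3 were above tumour 1, but here all 3 were above the comparison median, and 5 comparison tumours reached the level of tumour 1. The difference of 1.86 ± 0.30 (SE) passed (limma adjusted p = 0.000302), with no pairwise call against olig1-LMO1, whose mean of 9.46 was the highest of the 11 (0.13, limma adjusted p = 0.945). It was also not called singly against rag E2A knock out (0.91, limma adjusted p = 0.307) or Tal1 tumours (1.17, limma adjusted p = 0.122).

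The largest difference upward was that of Gdpd3, a phosphodiesterase of lysophospholipids, which read 11.16, 11.89 and 11.89, against a lowest of 7.66, a median of 7.98 and a highest of 12.70. All 3 tumours were high, and 9 comparison tumours were at or above the lowest of them. The difference was 2.13 ± 0.49 (SE, limma adjusted p = 0.00706), lost without tumour 2 (limma adjusted p = 0.0866) and without the Cdkn2a background (limma adjusted p = 0.0502). The NUP98-HOXD13 mean was 11.65, against 11.76 in rag E2A knock out and 7.73 in Pokemon tumours, the highest and lowest of the 11 background means of Gdpd3.

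Egr1, an immediate early transcription factor induced by receptor signalling, read 11.09, 12.12 and 11.90, against a lowest of 8.27, a median of 10.12 and a highest of 12.25 (difference 1.59 ± 0.42, SE, limma adjusted p = 0.0191). Nab2, a corepressor that EGR proteins bind and induce, read 9.72, 10.75 and 10.08, against a lowest of 7.72, a median of 8.73 and a highest of 10.46 (1.38 ± 0.34, SE, limma adjusted p = 0.0109). Both were high in all 3 tumours and highest in tumour 2, and both calls were lost without it (limma adjusted p = 0.186 for Egr1 and 0.174 for Nab2). The call on Egr1 was also lost without tumour 3 (limma adjusted p = 0.0695). Of 14 measured genes induced by T-cell receptor signalling, Egr1 was the 1 that rose, against 1.82% of all genes. Fosb, another immediate early gene, was the 1 that fell, against 6.06% of all genes, by 0.37 on the log2 scale (limma adjusted p = 0.00908). Singly, Fosb was called only against beta-catenin, Cdkn2a, Ikaros Plastic and ThPOK tumours.

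Fcna, which encodes ficolin A of macrophages, read 11.16, 10.38 and 10.77, against a lowest of 8.09, a median of 9.10 and a highest of 11.05 (1.55 ± 0.31, SE, limma adjusted p = 0.00218). Tumour 1 was above all comparison tumours here, and tumours 2 and 3 within their upper part. Myeloid markers summed to a log2 level of 14.60, 15.13 and 15.21, against 13.46 to 15.88, and 0 of 24 passed in limma's test (median difference 0.22, 20 above 0); their part in the level of Fcna was not tested. Itga6, the laminin receptor chain (1.20, limma adjusted p = 0.0302), Cd200, a surface ligand of lymphoid cells (1.16, adjusted p = 0.0373), and Cap1, an actin regulator (1.04, adjusted p = 0.0236), rose with all 3 tumours within the comparison range, and each of these 3 calls was lost without any 1 tumour. Singly, Cap1 was called only against beta-catenin, Ikaros Plastic, olig1-LMO1 and ThPOK tumours. Itga6 was called singly only against beta-catenin, Cdkn2a and ThPOK tumours, and Cd200 only against beta-catenin, Ikaros Plastic and ThPOK tumours. The other Itga6 probe set read 11.10, 12.01 and 11.25, against a lowest of 7.95, a median of 9.90 and a highest of 11.01, so there all 3 tumours were above every comparison tumour (1.60, limma adjusted p over probe sets 0.00228).

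**Figure D3:**
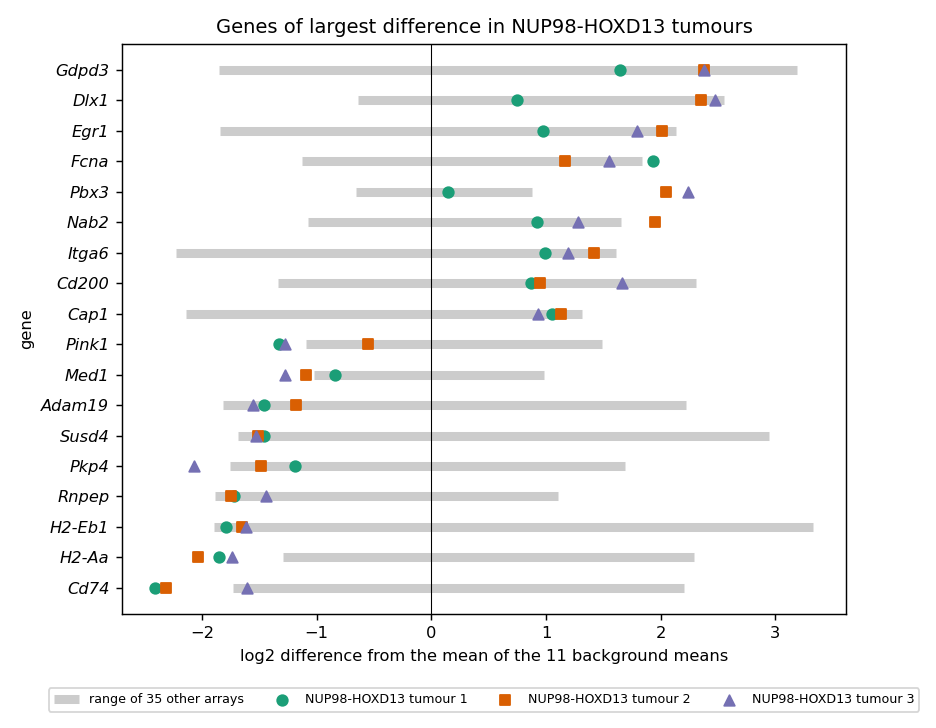
Difference from the mean of the 11 background means (horizontal axis, log2) for the 18 genes named for a called difference of at least 2-fold, with 1 symbol for each NUP98-HOXD13 tumour and a grey bar for the range of the 35 comparison arrays. The 3 tumours of H2-Aa lie below its grey bar, while those of most other genes lie within or across the end of theirs.

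Class II antigen presentation genes held 3 of the largest falls, Cd74, H2-Aa and H2-Eb1. Of 9 measured, 4 fell (Cd74, H2-Aa, H2-Eb1 and Ciita), against 6.06% of all genes, and the median difference was -0.70, against -0.05 over all genes. These genes load and display peptides on B cells, macrophages and dendritic cells, and mouse T cells are known for lacking them. Cd74, the invariant chain, read 8.88, 8.98 and 9.68, against a lowest of 9.56, a median of 11.23 and a highest of 13.49. Tumours 1 and 2 were below all comparison tumours, and 1 comparison tumour was at or below tumour 3. The difference was -2.11 ± 0.38 (SE, limma adjusted p = 0.00112), called against 7 of 11 backgrounds and kept without any 1 tumour.

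H2-Aa, the alpha chain of the class II heterodimer I-A, read 9.05, 8.86 and 9.16, against a lowest of 9.60, a median of 10.74 and a highest of 13.19. The groups did not overlap, which was so for 8 genes in this direction (0.0646% of all). The difference of -1.88 ± 0.40 (SE) passed (limma adjusted p = 0.00453), and it did not pass without tumour 2 (limma adjusted p = 0.0647). Its second probe set read 8.71, 8.36 and 8.73, against 8.52 to 12.23, and there the groups overlapped. H2-Eb1, which encodes another class II chain, read 8.03, 8.18 and 8.21, against a lowest of 7.93, a median of 9.43 and a highest of 13.16 (-1.69 ± 0.31, SE, limma adjusted p = 0.0011), with 5 comparison tumours at or below the highest of the 3. It was not called singly against Cdkn2a (-0.59), E2A (-0.15), rag E2A (0.06), Tal1 (-0.07) or Tal1-LMO2 tumours (0.01). Its low level was thus shared with several backgrounds.

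Ciita, the transactivator of class II genes, had low levels in all tumours and read 7.91, 7.87 and 7.95, against 7.67 to 8.94. It fell by 0.24 on the log2 scale (limma adjusted p = 0.0305), a call lost after quantile normalization, after centring and without any 1 tumour. Singly, Ciita was called only against beta-catenin, Cdkn2a and Ikaros Plastic tumours. H2-Ab1 read 10.20, 10.40 and 8.94, against 9.49 to 13.06 (-0.96, limma adjusted p = 0.191), and H2-DMa differed by -0.01. Without tumour 2, 2 of the 9 were called lower, beside 114 of all 12393 genes. Means of Cd74 in the single backgrounds ran between 9.89 in rag E2A knock out and 12.81 in beta-catenin tumours, and the 4 backgrounds with no pairwise call for Cd74 were E2A, rag E2A, Tal1 and Tal1-LMO2.

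Markers of cells that carry class II were read beside these values. B-cell markers fell for 2 of 12 measured genes, Jchain and Blk, against 6.06% of all genes, with a median of -0.27. Jchain, the joining chain of secreted antibody, read 6.98, 6.95 and 7.04, against a lowest of 6.81, a median of 9.47 and a highest of 12.66 (-2.13 ± 0.59, SE, limma adjusted p = 0.0236, lost without any 1 tumour). The 3 tumours were at the low end with rag E2A knock out (mean 6.83), E2A knock out (6.86) and ThPOK (6.87). Blk, a kinase of B cells that some T cells also use, read 7.92, 7.84 and 8.15, against 7.90 to 9.20 (-0.53, limma adjusted p = 0.011). The summed B-cell marker level was 11.91, 11.90 and 12.05, against 11.88 to 13.78, at the low end in all 3 tumours. The defining markers Cd79a (8.14, 8.03 and 8.05, against a median of 8.15) and Pax5 (7.46, 7.50 and 7.70, against a median of 7.60) did not pass (limma adjusted p = 0.583 and 0.975). The part of B cells in the class II levels was not tested.

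**Figure D4:**
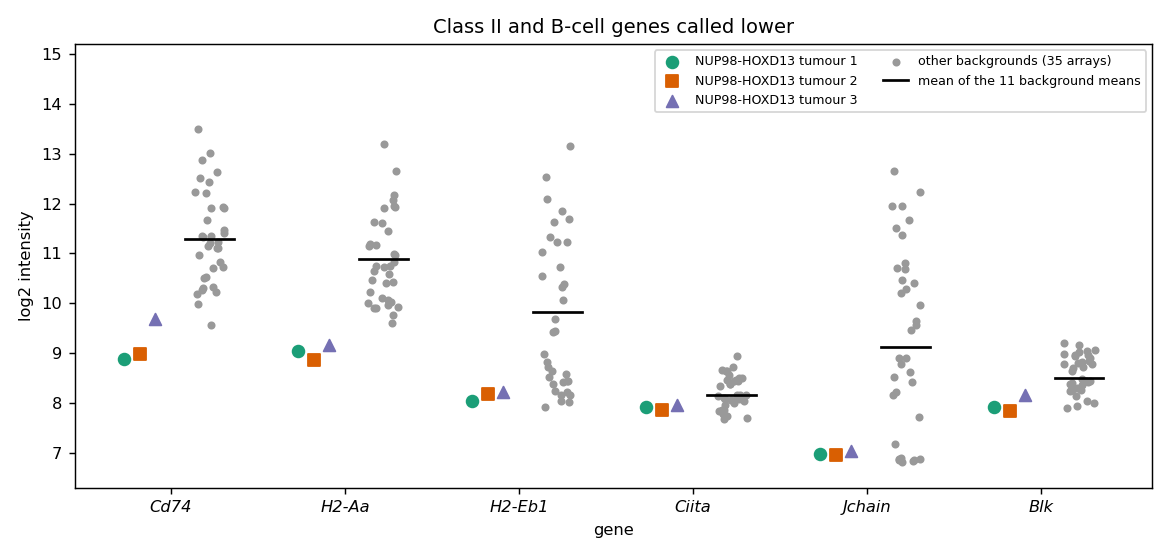
Log2 intensity (vertical axis) of the class II genes Cd74, H2-Aa, H2-Eb1 and Ciita and the B-cell genes Jchain and Blk, drawn as the 3 NUP98-HOXD13 tumours in colour and the 35 arrays of other backgrounds in grey, with a bar at the mean of the 11 background means. The 3 tumours lie close together at the low end for each gene, and below all grey points for H2-Aa.

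The other genes of largest fall were not of 1 kind. Rnpep, an aminopeptidase, read 7.86, 7.83 and 8.14, against a lowest of 7.70, a median of 9.59 and a highest of 10.68 (-1.64 ± 0.29, SE, limma adjusted p = 0.000983), called against 9 of 11 backgrounds and kept without any 1 tumour. Pink1, the mitochondrial quality-control kinase, read 8.14, 8.92 and 8.19, against a lowest of 8.37, a median of 9.58 and a highest of 10.95 (-1.05 ± 0.16, SE, limma adjusted p = 0.000157). Tumours 1 and 3 were below all comparison tumours for Pink1, and tumour 2 was inside their range. Pkp4, a junction plaque protein (-1.58, limma adjusted p = 0.0267), Susd4, a complement regulator (-1.50, adjusted p = 0.0356), and Adam19, a membrane metalloprotease (-1.40, adjusted p = 0.0285), fell as well, and each of these 3 calls was lost without any 1 tumour. Singly, Pkp4 was called only against Cdkn2a, Ikaros Plastic and ThPOK tumours, and Susd4 only against Ikaros Plastic, LMO1 and Pokemon tumours. Adam19 differed by 0.03 from beta-catenin and 0.25 from olig1-LMO1 tumours. The other Adam19 probe set differed by -1.11 and did not pass (limma adjusted p over probe sets 0.0766). Med1, a Mediator subunit, fell by 1.07 on the log2 scale on the probe set used (limma adjusted p = 1.58e-05), while its other 5 probe sets differed by -0.18 to 0.26, so its probe sets disagree.

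Genes whose groups did not overlap numbered 4 upward (0.0323% of all) and 8 downward, and most were small differences that the naming rule did not take. They were singled out after their values were seen. Zfp64, a zinc finger protein, read 11.08, 10.94 and 11.09, against 9.84 to 10.85 (0.73 ± 0.08, SE, limma adjusted p = 4.64e-06), and was called against 9 of 11 backgrounds. Chchd7, a small mitochondrial protein, read 10.71, 10.61 and 11.10, against 8.78 to 10.53 (0.89, limma adjusted p = 0.00418), and the other 2 were Mbnl1, which was not called (0.35, limma adjusted p = 0.0538), and Mtfr2 (0.44, adjusted p = 0.0013). For these 4 genes tumour 1 was above the comparison tumours as well, and Chchd7 was highest in tumour 3. The 8 downward genes were H2-Aa, Tyms, Mettl27 (-0.67), Rabggta (-0.62), Pcyt2 (-0.58), Pgc (-0.39), Afmid (-0.29) and Fhl4 (-0.20), of which Fhl4 was not called (limma adjusted p = 0.123). Gpx7, a peroxidase of the endoplasmic reticulum, is given for the tumours that differ: it read 9.95, 9.95 and 7.32, against 7.17 to 8.11 (1.57, limma adjusted p = 0.000474), so tumours 1 and 2 were above all comparison tumours and tumour 3 within them.

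Few proliferation genes were called. All 22 measured mitosis and spindle checkpoint genes had differences above 0, with a median of 0.29, against 4883 of 12393 genes above 0 in all, and 1 passed, against 1.82% of all genes. The median level of the 22 genes was 11.65, 11.67 and 11.46 in tumours 1, 2 and 3, within the 10.04 to 11.84 of the comparison tumours. Bub1b, a spindle checkpoint kinase, read 12.23, 11.83 and 12.30, against a lowest of 10.42, a median of 11.33 and a highest of 12.04 (0.81 ± 0.18, SE, limma adjusted p = 0.00554), with tumours 1 and 3 above all comparison tumours. Of 24 DNA replication genes, 23 were above 0 (median 0.21), and 1 rose and 1 fell, against 1.82% and 6.06% of all genes. Orc1, of the origin recognition complex, rose (0.56, limma adjusted p = 0.0202). Tyms, thymidylate synthase, fell by 0.35 on the log2 scale on the probe set used (limma adjusted p = 0.0131), with differences of 0.09 and 0.04 on its other 2. The call on Bub1b and that on Orc1 were lost without tumour 1 (limma adjusted p = 0.0586 and 0.289). Ribosome biogenesis genes gave 0 calls of 20 (median 0.11), and G1 cyclins, kinases and inhibitors 0 of 17 (median 0.01).

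Few T-lineage genes were called. The Notch list summed to a log2 level of 14.62, 14.76 and 13.64 in tumours 1, 2 and 3. The comparison tumours ran from 13.84 to 15.44, so tumour 3 lay below them all. The CD3 complex and proximal signalling list gave 0 calls of 17 in limma's test (median -0.03), Notch receptors and targets 0 of 17 (median -0.23), E proteins and Id inhibitors 0 of 7 (median 0.22), and JAK-STAT and cytokine receptor genes 0 of 18 (median 0.02). In the list of commitment factors 1 of 17 fell, Runx3 (-0.22, limma adjusted p = 0.0373), and in that of recombinase, pre-TCR and double-positive stage genes 1 of 14 fell, Cplx1 (-0.34, adjusted p = 0.0234). Singly, Runx3 and Cplx1 were called only against beta-catenin, Cdkn2a, Ikaros Plastic and ThPOK tumours. Runx3 differed by 0.26 from LMO1 and 0.16 from rag E2A knock out tumours. Single falls in a list, as also for Slamf6, Il18r1 and Lmo1 below, stand against 6.06% of all genes called lower. Slamf6, a surface receptor of T cells, read 10.53, 10.94 and 9.24, against a lowest of 9.96, a median of 11.29 and a highest of 12.32 (-1.05 ± 0.30, SE, limma adjusted p = 0.0278), with tumour 3 below all comparison tumours; it was 1 of 15 mature T-cell genes called, and the call was lost without tumour 1 and without tumour 3 (limma adjusted p = 0.0738 and 0.31). The other Slamf6 probe set differed by -0.44 and did not pass (limma adjusted p over probe sets 0.475). Cytotoxic and innate lymphoid genes had 1 of 21 lower, Il18r1 (-0.38, adjusted p = 0.0329). Lmo1 was 1 of 15 TAL1 and LMO complex genes called and fell by 1.11 on the log2 scale (limma adjusted p = 0.00952); the comparison holds 2 backgrounds with an LMO1 transgene, and the call was lost without either, and also without tumour 1 or tumour 2.

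The remaining lists gave few calls. Of 18 p53 target genes and 14 BCL2 family genes, 0 were called in limma's test (medians -0.03 and -0.15). Of 22 interferon-stimulated genes 1 rose, against 1.82% of all genes, Ifit2 (0.55, limma adjusted p = 0.0443), with a list median of -0.19. Erythroid and megakaryocyte markers fell for 2 of 12, against 6.06% of all genes, Epor (-0.67, limma adjusted p = 0.00373) and Slc4a1 (-0.40, adjusted p = 0.0413). The other probe sets of Slc4a1 differed by 0.02 and -0.07 and did not pass. Singly, Slc4a1 was called only against beta-catenin, Cdkn2a, Ikaros Plastic and ThPOK tumours. Stromal, endothelial and epithelial markers rose for 3 of 20, against 1.82% of all genes, and tumour 2 was the highest of the 3 for each: Fabp4, of fat and endothelium, read 11.40, 12.87 and 11.12, against 7.41 to 13.11 (1.71, limma adjusted p = 0.0208), Cdh5, the endothelial cadherin, read 8.52, 9.29 and 8.42, against 7.08 to 9.55 (0.62, adjusted p = 0.0163), and Lum, a matrix proteoglycan, differed by 0.55 (adjusted p = 0.0426). Probe sets disagreed for Cdh5, whose other one differed by -0.09, and for Fabp4, whose others differed by 1.62, 0.32 and -0.11. Without tumour 2, 0 of these 20 were called in limma's test.

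The 3 NUP98-HOXD13 tumours differed among themselves. Over 6192 genes centred on the mean of the 38 arrays, tumours 1 and 2 correlated at r = 0.486, tumours 1 and 3 at 0.282, and tumours 2 and 3, which share the HOX pattern, at 0.233. These are correlations across genes, and genes are not independent replicates. Within other backgrounds the mean correlation ran between 0.355 (olig1-LMO1) and 0.705 (beta-catenin), with 0.362 in Tal1 and 0.394 in Cdkn2a tumours. These are means over the pairs of a background, while the NUP98-HOXD13 values are single pairs. The single comparison array most like tumour 1 was a rag E2A knock out tumour (r = 0.446), the one most like tumour 2 an LMO1 tumour (0.476), and the highest for tumour 3 was 0.131, with an olig1-LMO1 tumour. Counts of genes called against single backgrounds ran between 36 higher and 60 lower against Pokemon (2 arrays) and 1242 higher and 3722 lower against beta-catenin (3 arrays). Genes called lower numbered 3176 to 3722 against beta-catenin, Cdkn2a, Ikaros Plastic and ThPOK tumours, and 60 to 622 against the other backgrounds.

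The genes of widest range within the 3 tumours are given as a description, with no test. Tumour 3 was apart from tumours 1 and 2 in most of them. It was high for Bex1, a small adaptor protein known from neurons, which read 7.54, 8.96 and 12.73, against 6.23 to 12.58 in the comparison tumours, and for the neutrophil genes S100a8 (7.66, 8.95 and 11.97) and S100a9 (7.50, 8.54 and 11.56). It was low for Dtx1, a Notch target gene, which read 11.83, 12.29 and 8.34, against 8.53 to 13.32, and so lay below all comparison tumours. H2-T3, the thymic leukaemia antigen, read 12.38, 11.81 and 7.53, against 7.37 to 12.84, and Sh3gl3, an endophilin, read 10.64, 11.76 and 7.90, against 7.70 to 11.32. Aldh1b1, a mitochondrial aldehyde dehydrogenase, read 11.76, 10.18 and 8.21, against 7.22 to 12.07, and Ifi209, an interferon-inducible gene, was high in tumour 2 (8.92, 11.10 and 7.52).

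Other listed genes, singled out after their values were seen, also set tumour 3 or tumour 2 apart. Rag1, of the recombinase, read 11.92, 11.83 and 8.88, and Ptcra, of the pre-T-cell receptor, 10.82, 10.02 and 7.98, both lowest in tumour 3 and within the comparison ranges of 8.14 to 13.21 and 7.73 to 12.23. The granule gene Mpo read 8.58, 8.71 and 10.13, and Camp, of neutrophil granules, 7.90, 7.84 and 9.28, against a highest of 9.07, so that Camp in tumour 3 was above all comparison tumours. Fibroblast collagen was instead highest in tumour 2, where Col1a2 read 11.95, against 9.77 in tumour 1 and 9.59 in tumour 3. The part of these other cells in the differences between the tumours was not tested.

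**Figure D5:**
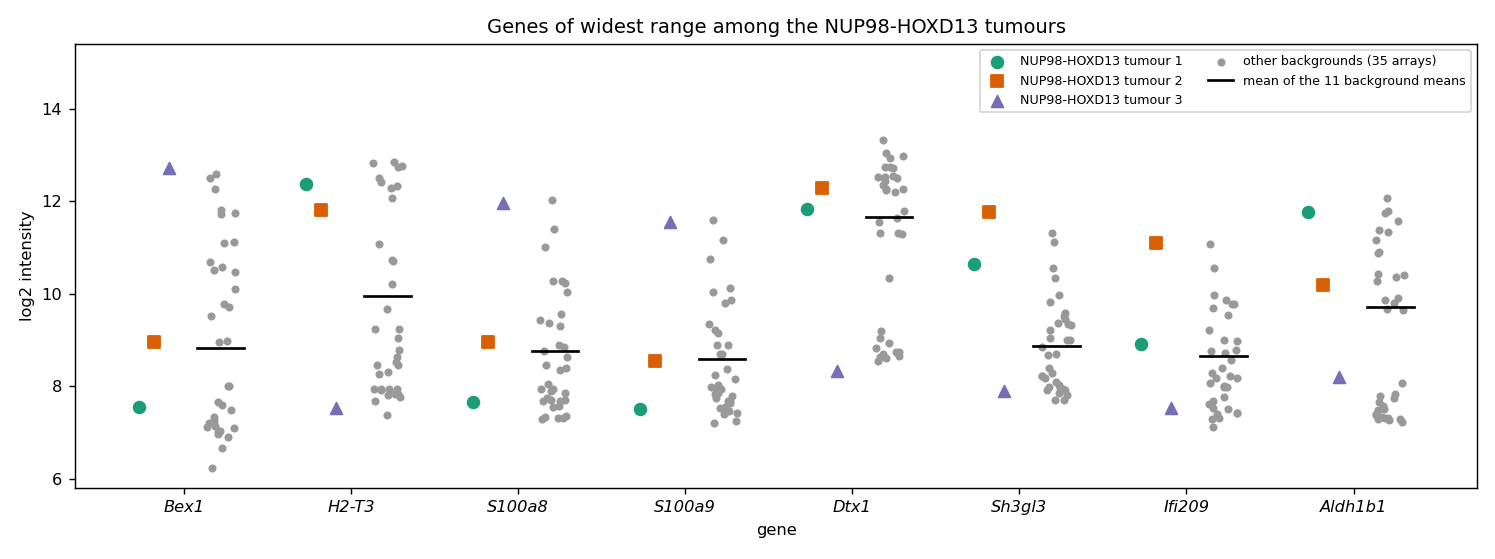
Log2 intensity (vertical axis) of the 8 genes of widest range among the 3 NUP98-HOXD13 tumours (coloured symbols), with the 35 arrays of other backgrounds in grey and a bar at the mean of the 11 background means. Tumour 3 stands apart from tumours 1 and 2 for Bex1, H2-T3, S100a8, S100a9, Dtx1 and Sh3gl3, and most grey points also spread over a wide range for these genes.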

How the data were processed

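Total RNA of T-cell lymphoblastic tumours was turned into biotin-labelled cRNA for oligonucleotide arrays, per the labels' protocols. The authors deposited a signal intensity on a linear scale for 22690 probe sets and 53 arrays. Their background correction and normalization are not stated in the sources used here, and they could change any difference in overall level between arrays. Log2 of each intensity was taken here, and 38 arrays of 12 backgrounds were used. Their median intensity ran between 441 and 590, and precision is limited by how many arrays there are. Groups come from the genotype labels and the titles, and tumour numbers from the titles, or from accession order where a title has none.

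Probe sets were named by the platform annotation, with symbols updated by Entrez identifier through RefSeq (GRCm38.p6): 20380 had 1 symbol, 691 several and 1555 none, and 20351 matched. For the 4956 genes with several probe sets, that of highest mean was used, which gave 12393 genes with no filter. limma 3.58.1 (R 4.3.3) fitted 1 mean per background, with eBayes and Benjamini-Hochberg adjustment at 0.05 over all genes, and was tested on simulated data. Pairwise contrasts came from the same fit. Named genes were those called, at least 2-fold, above the median level in the higher group and outside the interquartile range of the comparison arrays in all 3 tumours, up to 12 each way; genes called against each background; all HOX, TALE and fusion genes; up to 4 called members each way of each other list; and the 8 of widest range within the tumours. Unnamed transcripts, receptor segments and sex-linked marker genes were left out. The members, lists and tests were chosen with earlier results of these data known. Alternatives changed the filter, probe set, scaling, comparison group, error model and replicates. Figures used Matplotlib 3.10.9, and permutation tests SciPy 1.17.1. The TLX1 and p53 arrays entered 1 alternative only.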

Additional observations from a re-analysis of the deposited data

How the results depend on the processing

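The counts of genes moved with most choices, and the causes were not tested except where an alternative tests fewer genes. The main counts were 226 higher and 751 lower, with 19 and 19 at 2-fold. Keeping genes over their array's median in 3 or more arrays (7822 genes) gave 135 higher and 363 lower, and in 19 or more (6225 genes) 93 and 215, with 6 and 10 at 2-fold; under both filters 0 genes were higher against each background, as Hoxc4 was not tested. Quantile normalization gave 355 higher and 456 lower, and centring each array on its median 473 and 395, so the split between directions depends on scaling. Without the beta-catenin background the counts were 130 and 384, and without Cdkn2a 158 and 451. With the TLX1 and p53 arrays included they were 92 and 247, with 11 lower at 2-fold. Equal weights for the 35 arrays gave 5 and 0, with 4 and 0 at 2-fold, and background as a random block (consensus correlation 0.544) gave 0 and 0. Without 1 array, counts ran from 49 to 298 higher, 114 to 955 lower, 12 to 22 higher and 11 to 24 lower at 2-fold. Genes higher against each background numbered 1 to 7 without 1 array (7 without tumour 1), 2 with the mean of probe sets, 0 without Cdkn2a, 3 without Pokemon and 2 without rag E2A; genes lower against each numbered 0 without any 1 array and 1 without Tal1.

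Of 43 named genes called, 10 were kept without each NUP98-HOXD13 tumour in turn, and the 1 that turned was Tyms, at 0.035 (adjusted p = 0.851) on the probe set of largest interquartile range. The 18S difference ran between 0.64 and 0.84 without 1 tumour, with adjusted p of 0.0781, 0.321 and 0.114 without tumours 1, 2 and 3, the array median difference between -0.11 and -0.07, the actin ratio between -0.10 and -0.05 and the Gapdh ratio between -0.11 and 0.06. With the replicate number as a block, 194 genes were higher and 701 lower. Deviations of same-numbered arrays from their background means correlated at -0.21 to 0.09 over 24 pairs. This cannot tell whether arrays of the same number shared a handling step, which was not tested.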

Other observations

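Tumours of TLX1 transgenic and p53 knock out mice were outside the comparison, and some of their levels reach those of the NUP98-HOXD13 tumours. Dlx1 averaged 9.58 in NUP98-HOXD13 tumours, 10.4 ± 1.05 (SD, n = 6) in tumours of TLX1 transgenic mice crossed with RUNX heterozygotes, 10.1 ± 0.42 (SD, n = 6) in TLX1 transgenic tumours and 7.38 ± 0.16 (SD, n = 3) in p53 knock out tumours. Hoxa7, at 8.62, 9.70 and 11.12 in NUP98-HOXD13 tumours, read 9.45 to 10.13 in TLX1 transgenic and 9.13 to 9.92 in p53 knock out tumours, so that tumour 2 lay within both ranges and tumour 3 above them. Over the 15 TLX1 and p53 arrays the highest levels were 7.91 for Hoxc4, 7.81 for Hoxa5, 7.29 for Hoxc8 and 8.88 for Pbx3. These differences were not tested.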
